A study of Mus musculus with 20 samples.

Results

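The genes described here are the interleukins and interleukin receptors of an nCounter panel, measured in mouse breast tumours 1 day after treatment with an immune-stimulating antibody conjugate (ISAC). They were chosen by name: 59 of the 770 rows carry a symbol that starts with Il and a digit, and 14 of these were set aside by name (Il1a, Il1b, Il1rn, Il1r1, Il1r2, Il1rap, Il2ra, Il6, Il6ra, Il6st, Il10, Il10ra, Il12a and Il12b), which left 45 genes. Of these, 22 encode a secreted cytokine and 23 a receptor chain, a decoy receptor or a relative of the receptors. The rule uses names and no measured value, and it was written with earlier results of these data known.

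The tumours were grown from MMC cells, a mouse mammary carcinoma line, under the skin of host animals (FVB/N-TgN(MMTV-Erbb2)NK1Mul/J) aged 6 to 8 weeks at implantation. These hosts carry Erbb2 under the mouse mammary tumour virus promoter, which is active mainly in mammary epithelium, and all groups share this transgene and this cell line, so the model is a single line in 1 strain. Treatment began at tumour volumes of 200 to 500 mm3 and was given into the peritoneum at 5 mg/kg. A group of 5 tumours received the anti-rHER2 T785-ISAC, the rat HER2 antibody carrying T785, a small-molecule agonist of Toll-like receptors. The other groups, also of 5 tumours each, received the anti-rHER2 antibody alone, an isotype T785-ISAC whose antibody is a control of the same class, or the isotype control antibody alone. The labels name 20 mice, 1 tumour each, with no batch or sex.

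Interleukins signal through receptors of a few shared chains, so the level of a chain bears on several cytokines at once. Il2rg, the common gamma chain, is used by the receptors for interleukins 2, 4, 7, 9, 15 and 21 and signals through Jak1, Jak3 and the STAT proteins. Il3ra and Il5ra pair with a common beta chain, Csf2rb. Il17ra is the chain shared by the interleukin-17 family, and the interleukin-1 family, with Il18 and the interleukin-33 receptor Il1rl1, signals through Myd88. In tumours these receptors sit mainly on lymphocytes and myeloid cells, and some, such as Il4ra, Il13ra1 and Il17ra, also on epithelium.

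Values are the deposited normalized signal, on a linear scale with no value below 1. A signal of 1 count was worth between 0.826 and 1.33, and counts recovered from the values totalled 271793 to 508410 per tumour. They totalled 398310 to 508410 in the anti-rHER2 ISAC tumours, all above the 271793 to 395913 of the isotype antibody tumours. The anti-rHER2 tumours had 297116 to 432470 and the isotype ISAC tumours 320787 to 431490. The part of total counts in the calls was not tested. The probes differ in efficiency and the values are not per length, so no gene's level is set against another gene's. Epcam, an epithelial marker, had signals of 4390 to 7192 over all tumours. The mast cell marker Ms4a2 stayed at or near the floor, at most 10.3 in any tumour. Tests were run with limma on log2(signal + 1) over all 770 genes, so a fold change understates the change of low genes. A gene was called at a Benjamini-Hochberg adjusted p below 0.05, and values below are means ± SD (n = 5 tumours) with log2 fold changes ± SE.

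On the deposited scale receptor chains, and no secreted interleukin, made up the calls of the anti-rHER2 ISAC. Of the 45 genes, 7 were higher and 0 lower by limma than with the isotype antibody, against 39.9% of all 770 genes higher and 4.68% lower. The share of these genes that was higher, 15.6%, was therefore below that of the whole panel. All 7 were receptor chains: Il21r, Il2rb, Il17ra, Il3ra, Il2rg, Il1rl1 and Il4ra. When the tumours were rescaled, this comparison gave 2 higher and 9 lower under equal medians, 3 higher and 8 lower under quantile normalization, and 6 of each under median ratios. The panel's median log2 fold change there was -0.30, -0.095 and -0.021, in that order. Its shares of higher and lower genes on these scales are not reported here, so these counts are not set against the panel. The ligands Il15, Il18, Il23a and Il34 were among the lower genes on all 3 of these scales. Against anti-rHER2 alone 5 were higher and 0 lower (panel 19.6% higher and 2.99% lower), and against the isotype ISAC 9 were higher and 0 lower (panel 36% and 3.9%). These 3 comparisons share the same 5 ISAC tumours and so are not independent of each other. The median log2 fold change over the 45 genes was 0.30 against the isotype antibody, where the median over all genes was 0.36. It was 0.087 against anti-rHER2 (all genes 0.16) and 0.19 against the isotype ISAC (all genes 0.29).

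**Figure D1:**
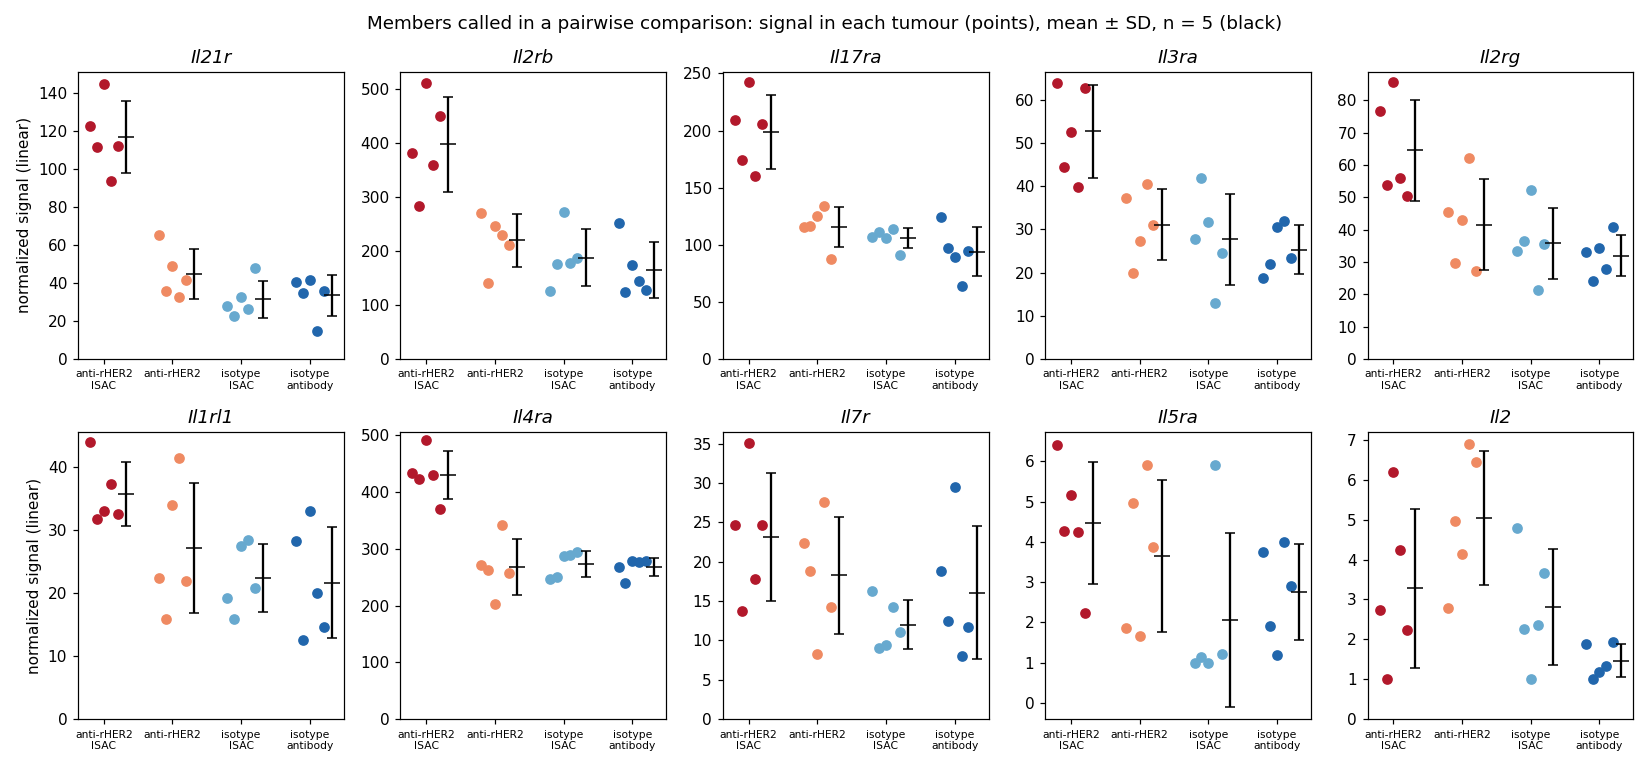
Signal in each of the 20 tumours for the interleukin genes called in at least 1 comparison, on linear axes that differ between panels, with the mean and SD of each group of 5. For Il21r the anti-rHER2 ISAC tumours lie between 93.3 and 144, above all other tumours, whose highest signal is 65.1.

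Il21r, the receptor chain for interleukin-21, showed the largest difference among the 45 genes. Its signal was 123, 111, 144, 93.3 and 112 in the anti-rHER2 ISAC tumours and 65.1, 35.7, 48.7, 32.6 and 41.3 in the anti-rHER2 tumours. It was 27.7, 22.7, 32.5, 26.01 and 47.7 in the isotype ISAC tumours and 40.5, 34.5, 41.2, 14.6 and 35.9 in the isotype antibody tumours. All ISAC tumours were above every other tumour, and the other 3 groups overlapped. The mean was 117 ± 18.7 with the anti-rHER2 ISAC, against 44.7 ± 12.97 with anti-rHER2, 31.3 ± 9.81 with the isotype ISAC and 33.3 ± 10.9 with the isotype antibody. The log2 fold change was 1.85 ± 0.26 against the isotype antibody (limma adjusted p = 1.31e-05). It was 1.39 ± 0.26 against anti-rHER2 (adjusted p = 0.000578) and 1.90 ± 0.26 against the isotype ISAC (adjusted p = 1.1e-05).

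Il4ra, the chain that binds interleukin-4 in both of its receptors, also stood apart in these tumours, with a smaller fold change. Its signal was 434, 424, 491, 430.0 and 371 in the anti-rHER2 ISAC tumours and 272, 263, 203, 342 and 258 in the anti-rHER2 tumours. It was 246, 249.8, 286, 289.7 and 294 in the isotype ISAC tumours and 267, 240.4, 278, 277 and 279 in the isotype antibody tumours. The lowest ISAC tumour was above the highest of the others. Its log2 fold change was 0.68 ± 0.12 against the isotype antibody (adjusted p = 0.000129), 0.70 ± 0.12 against anti-rHER2 (adjusted p = 0.000249) and 0.65 ± 0.12 against the isotype ISAC (adjusted p = 0.000215). The anti-rHER2 tumours averaged 268 ± 49.6, against 268 ± 16.2 in the isotype antibody tumours, a log2 difference of -0.02 ± 0.12. The Il4ra call against the isotype antibody was lost with quantile normalization and with equal medians, where its value turned to -0.047, and to -0.072 against the isotype ISAC.

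Il21r and Il4ra were also the genes called, on the deposited scale, for a difference in the effect of T785 between the antibodies that carried it. The interaction, the anti-rHER2 ISAC minus anti-rHER2 less the isotype ISAC minus the isotype antibody, was called higher for 2 of the 45 genes and lower for 0, against 6.88% and 0.26% of the panel. It was 1.45 ± 0.36 for Il21r (adjusted p = 0.0149) and 0.67 ± 0.17 for Il4ra (adjusted p = 0.0135). Both calls were lost with equal medians and with quantile normalization, where the adjusted p reached 0.0579 for Il21r and 0.316 for Il4ra, whose interaction was as low as 0.23. The median interaction was -0.0090 over the 45 genes and 0.11 over all genes. Another 4 genes, Il17ra, Il2, Il22ra1 and Il25, had an unadjusted p below 0.05 and were not called.

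In the mouse genome Il4ra and Il21r are next to each other among the protein-coding genes of chromosome 7, in the same orientation, in RefSeq's GRCm38.p6 annotation. The bases before their starts are shown because both genes were called in the interaction, with those before Il2rg, the chain that joins both proteins in their receptors. The stretch shown before Il4ra lies at chr7:125552021-125552270 on the plus strand, and that before Il2rg at chrX:101268256-101268505 on the minus strand. The shorter Il21r stretch, which ends before the first annotated base of the gene, lies at chr7:125603179-125603251 on the plus strand. Capitals mark ATGCAAAT, the octamer motif, before Il4ra and CCGGAAG, an ETS motif, before Il2rg.
Il21r: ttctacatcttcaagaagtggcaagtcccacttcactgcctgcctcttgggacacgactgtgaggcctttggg
Il4ra: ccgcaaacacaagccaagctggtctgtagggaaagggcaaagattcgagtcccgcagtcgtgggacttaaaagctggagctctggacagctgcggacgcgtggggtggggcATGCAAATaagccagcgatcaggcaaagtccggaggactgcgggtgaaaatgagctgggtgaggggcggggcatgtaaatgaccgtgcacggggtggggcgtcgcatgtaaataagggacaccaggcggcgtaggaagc
Il2rg: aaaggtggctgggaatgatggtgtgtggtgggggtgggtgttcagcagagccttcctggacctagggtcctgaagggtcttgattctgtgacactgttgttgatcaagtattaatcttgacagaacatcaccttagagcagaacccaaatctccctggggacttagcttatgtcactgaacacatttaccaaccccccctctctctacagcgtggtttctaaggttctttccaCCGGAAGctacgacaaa
The octamer begins 139 bases before the start of Il4ra, at -139, and the ETS motif at -17 before Il2rg. Both strands of the bases shown, 73 for Il21r and 250 for each of the others, were searched for TTCNNNGAA, bound by STAT proteins, and TGANTCA, bound by AP-1, as well as for these motifs, and no other match was found in them. Of 32851 mouse promoter windows of 250 bases, 7.02% hold TTCNNNGAA, 6.75% TGANTCA, 1.60% ATGCAAAT and 6.91% CCGGAAG. The octamer was added to the search after the sequence was seen. A match describes the letters of the window and is not evidence of binding, and no match says nothing about a factor.

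Il2rb and Il2rg, other chains of the common gamma family, were also higher. Il2rb, shared by the receptors for interleukins 2 and 15, had signals of 381, 283, 512, 359.6 and 450.4 in the anti-rHER2 ISAC tumours and 269.8, 140.0, 247, 229.8 and 212 in the anti-rHER2 tumours. It had 126, 175, 272, 177 and 186 in the isotype ISAC tumours and 251, 124, 173, 145 and 128 in the isotype antibody tumours. The ISAC tumours were all above the others, and the 3 remaining groups overlapped. Its log2 fold change was 1.29 ± 0.23 against the isotype antibody (adjusted p = 0.000171), 0.86 ± 0.23 against anti-rHER2 (adjusted p = 0.0113) and 1.10 ± 0.23 against the isotype ISAC (adjusted p = 0.000836). Il2rg, the common gamma chain itself, had 76.8, 53.9, 85.6, 55.98 and 50.4 in the anti-rHER2 ISAC tumours and 45.6, 29.8, 42.9, 62.1 and 27.1 in the anti-rHER2 tumours. It had 33.5, 36.3, 52.2, 21.3 and 35.5 in the isotype ISAC tumours and 32.9, 23.95, 34.2, 27.9 and 40.8 in the isotype antibody tumours. The ISAC tumours did not overlap the isotype antibody tumours and overlapped both other groups. Il2rg was called against the isotype antibody (log2 fold change 0.98 ± 0.24, adjusted p = 0.00249) and the isotype ISAC (0.86 ± 0.24, adjusted p = 0.00755). Against anti-rHER2 it was 0.66 ± 0.24, and its adjusted p of 0.0564 missed the threshold. The Il2rg call against the isotype ISAC was lost on each of the 3 other scales. The Il2rb call against anti-rHER2 was lost with equal medians and quantile normalization, and that against the isotype ISAC with equal medians.

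Il7r, which binds interleukin-7 and marks lymphocytes and innate lymphoid cells, was called in 1 comparison. Its signal was 24.7, 13.7, 35.1, 17.8 and 24.7 in the anti-rHER2 ISAC tumours and 16.3, 9.08, 9.4, 14.2 and 11.01 in the isotype ISAC tumours, with a log2 fold change of 0.86 ± 0.33 (adjusted p = 0.0448). The groups overlapped, and leaving out any 1 of 9 of the 20 tumours ended the call, with an adjusted p up to 0.122. It had 22.3, 18.9, 8.26, 27.6 and 14.2 in the anti-rHER2 tumours and 18.8, 12.5, 29.5, 7.98 and 11.7 in the isotype antibody tumours, and the log2 difference between the anti-rHER2 ISAC and the isotype antibody was 0.57 ± 0.33 (adjusted p = 0.182). Il15ra, the high-affinity chain for interleukin-15, was not called on the deposited scale. It averaged 53.9 ± 6.84 with the anti-rHER2 ISAC and 61.7 ± 11.3 with the isotype antibody, a log2 difference of -0.18 ± 0.16 (95% interval -0.53 to 0.16).

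Il17ra, the shared chain of the interleukin-17 receptors, was higher in all 3 comparisons of the anti-rHER2 ISAC. It had signals of 209, 174, 242, 160.3 and 206 in the anti-rHER2 ISAC tumours and 115, 116, 125, 134 and 87.8 in the anti-rHER2 tumours. It had 107, 111, 106, 114 and 90.5 in the isotype ISAC tumours and 124, 96.8, 89.6, 63.8 and 94.2 in the isotype antibody tumours. Every ISAC tumour lay above every other tumour. Its log2 fold change was 1.09 ± 0.16 against the isotype antibody (adjusted p = 1.82e-05), 0.77 ± 0.16 against anti-rHER2 (adjusted p = 0.0014) and 0.89 ± 0.16 against the isotype ISAC (adjusted p = 0.000175).

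Il3ra, the interleukin-3 binding chain, was called in all 3 comparisons and was less separated. Its signal was 64.01, 44.5, 52.6, 39.9 and 62.7 in the anti-rHER2 ISAC tumours and 37.2, 19.9, 27.2, 40.4 and 30.98 in the anti-rHER2 tumours. It was 27.7, 42.01, 31.6, 13.01 and 24.5 in the isotype ISAC tumours and 18.8, 22.03, 30.6, 31.9 and 23.3 in the isotype antibody tumours. The ISAC tumours did not overlap the isotype antibody tumours and overlapped the other groups slightly. The log2 fold change was 1.03 ± 0.25 against the isotype antibody (adjusted p = 0.00266), 0.76 ± 0.25 against anti-rHER2 (adjusted p = 0.0385) and 0.97 ± 0.25 against the isotype ISAC (adjusted p = 0.00491). The call against anti-rHER2 was lost when anti-rHER2 tumour 2, 3 or 5 or ISAC tumour 1, 3 or 5 was left out, with an adjusted p up to 0.118. It was also lost on each of the 3 other scales, as was the call against the isotype ISAC.

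Il1rl1, the interleukin-33 receptor also named ST2, was called against both isotype groups. It had 43.9, 31.7, 33.02, 37.3 and 32.5 in the anti-rHER2 ISAC tumours and 22.3, 15.9, 33.9, 41.4 and 21.9 in the anti-rHER2 tumours. It had 19.1, 15.9, 27.4, 28.4 and 20.8 in the isotype ISAC tumours and 28.2, 12.5, 32.99, 19.9 and 14.6 in the isotype antibody tumours. The ISAC tumours overlapped the isotype antibody tumours and were all above the isotype ISAC tumours. Its log2 fold change was 0.78 ± 0.26 against the isotype antibody (adjusted p = 0.0221) and 0.67 ± 0.26 against the isotype ISAC (adjusted p = 0.0489). The first call was lost without isotype antibody tumour 2 or 5 or ISAC tumour 1 (adjusted p up to 0.0720), and the other without any 1 of 12 tumours (adjusted p up to 0.123). Interleukin-33 itself could not be examined, since no row of the panel carries the symbol Il33.

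Il5ra, the interleukin-5 binding chain found on eosinophils and B cells, was near the floor of the assay. It had 6.4, 4.28, 5.16, 4.24 and 2.24 in the anti-rHER2 ISAC tumours and 1.86, 4.96, 1.65, 5.92 and 3.87 in the anti-rHER2 tumours. It had 1, 1.14, 1, 5.91 and 1.22 in the isotype ISAC tumours and 3.76, 1.92, 1.18, 3.99 and 2.91 in the isotype antibody tumours. These are few counts, and the groups overlapped. It was called against the isotype ISAC (log2 fold change 0.99 ± 0.36, adjusted p = 0.0352). The call was lost without any 1 of 8 tumours (adjusted p up to 0.0882) as well as with a pseudocount of 10, with the compared groups fitted alone, with edgeR and on each of the 3 other scales.

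The remaining receptors were not called in any comparison on the deposited scale. In the interleukin-1 family these were Il18r1 and Il18rap, the 2 chains for interleukin-18, with Il1rl2, which binds interleukin-36, and Il1rapl2. Il18rap averaged 25.2 ± 8.15 with the anti-rHER2 ISAC, against 19.7 ± 7.34 with the isotype antibody. With equal medians and with quantile normalization, Il18r1 and Il1rl2 were called lower against both isotype groups. Against the isotype antibody with equal medians the log2 fold change was -0.41 for Il18r1 and -0.54 for Il1rl2. The interleukin-13 receptors Il13ra1, which also completes an interleukin-4 receptor with Il4ra, and Il13ra2, a decoy, were not called either. Il13ra1 averaged 609.6 ± 62.3 with the anti-rHER2 ISAC and 691 ± 108 with the isotype antibody (log2 difference -0.17 ± 0.13). Il12rb1 and Il12rb2, the chains for interleukin-12, and Il23r stayed at low signals, as did Il17rb, Il22ra1 and Il22ra2. Il11ra1 has a near-identical copy in the mouse genome, Il11ra2, and its value is uncertain for that reason.

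**Figure D2:**
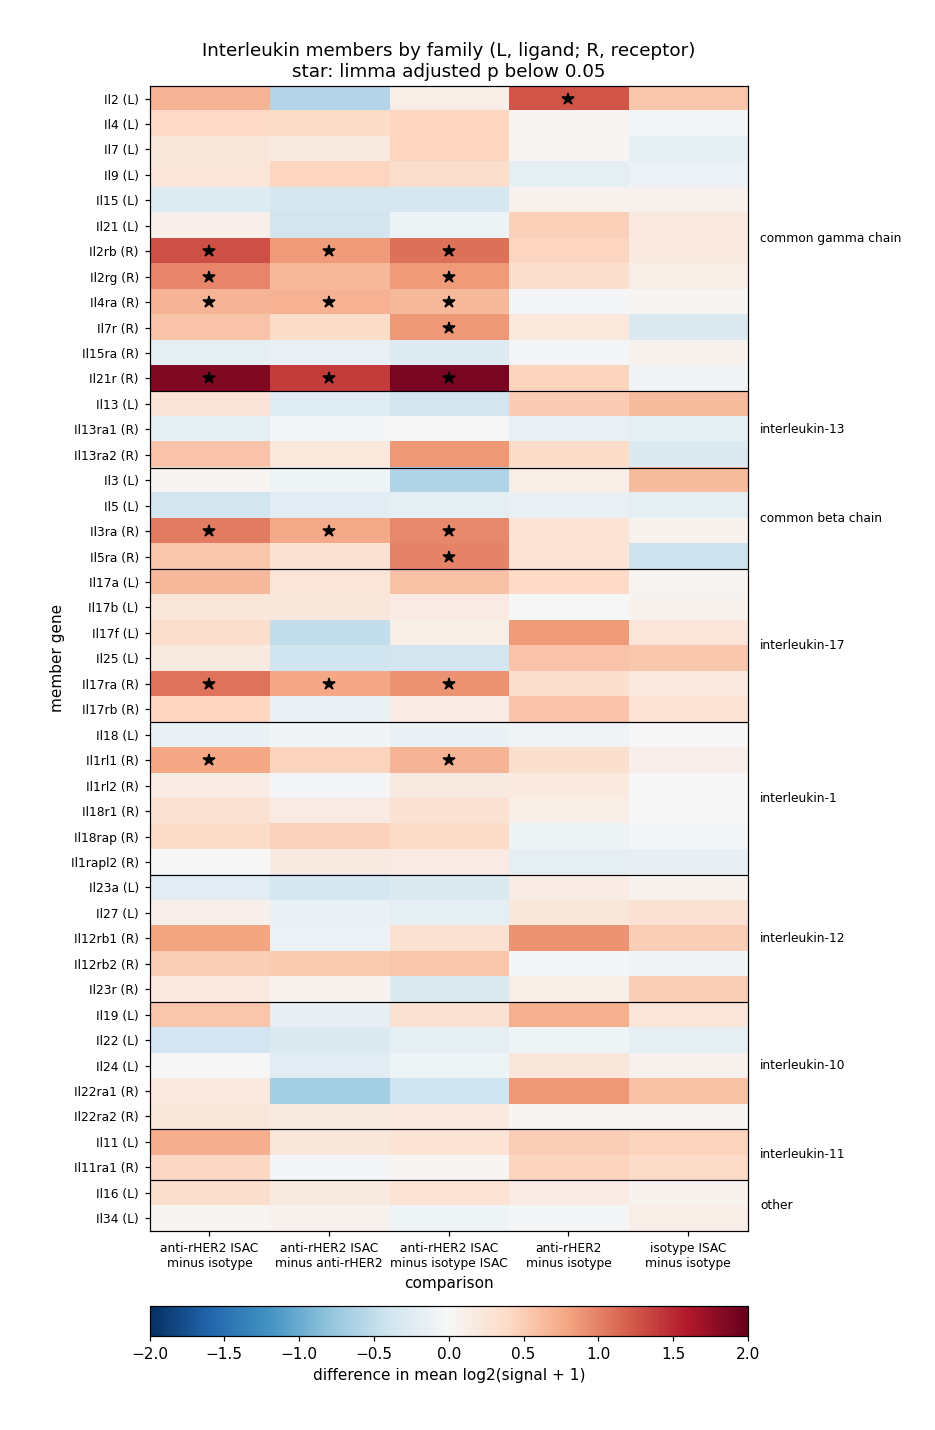
Log2 fold change (colour) of each of the 45 genes, in rows by family with ligands (L) before receptors (R), in the 5 pairwise comparisons (columns), with a star where limma's adjusted p was below 0.05. The calls of the anti-rHER2 ISAC fall among the receptors, and the largest value is 1.90 for Il21r against the isotype ISAC.

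On the deposited scale none of the 22 secreted interleukins was called higher or lower in the anti-rHER2 ISAC tumours in any of the 3 comparisons. With the replicate number as a block in the limma fit, Il11 was called higher against the isotype antibody (0.73, adjusted p = 0.0163). On each of the other 3 scales Il15, Il18, Il23a and Il34 were called lower against both isotype groups. Il25, at few counts, was called lower against the isotype ISAC on each of them. Its values were -0.99 with equal medians, -0.68 with median ratios and -0.77 with quantile normalization. Il3 and Il16 were lower in that comparison on some of these scales. Most were measured at few counts: 17 of the 22 had a mean signal under 10 over the 20 tumours, a line drawn with the values known, as had 9 of the 23 receptors. The 5 ligands above it were Il15, Il16, Il18, Il23a and Il34. Among genes with a mean of 10 or above, 7 of 14 receptors were higher against the isotype antibody (median log2 fold change 0.62) and 0 of 5 ligands (median -0.13). Of all 585 genes at that level 49.2% were higher (median 0.41), so the receptors' share was close to that of the panel. The difference between receptors and ligands was not tested. Over all levels the median against the isotype antibody was 0.50 for the 23 receptors and 0.20 for the 22 ligands.

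**Figure D3:**
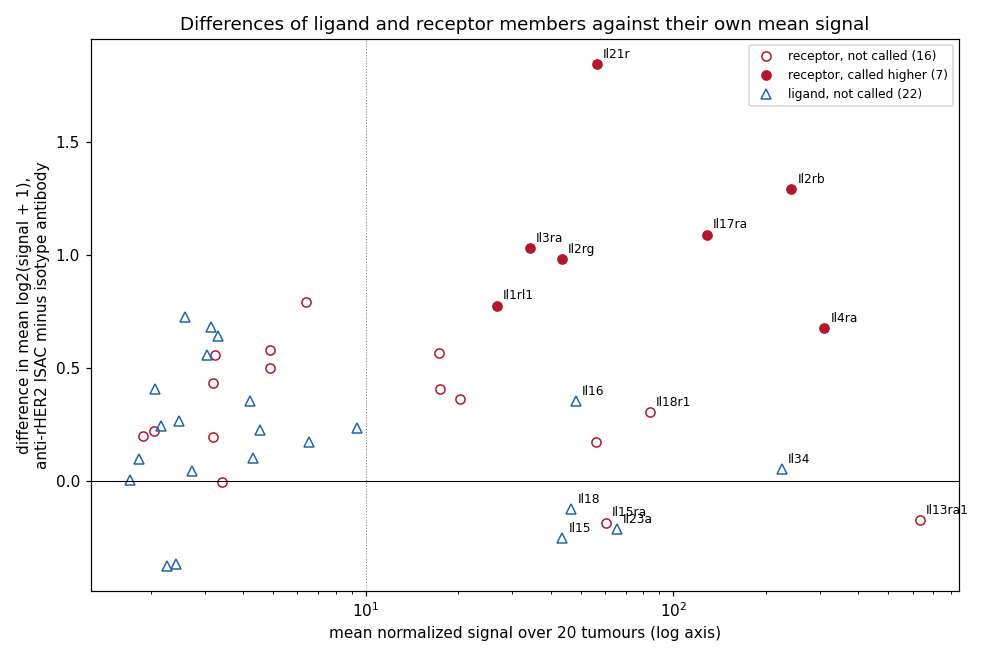
Log2 fold change, anti-rHER2 ISAC over isotype antibody, of each gene (vertical axis) against its mean signal over the 20 tumours on a log axis, with receptors as circles, filled where called, and ligands as triangles. Called genes are all receptors with a mean of 10 or above, where 0 of 5 ligands were called.

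Il15, which supports NK cells and memory T cells, was among the better measured ligands. Its signal was 40.2, 29.1, 49.5, 33.9 and 30.3 in the anti-rHER2 ISAC tumours and 44.7, 37.7, 48.7, 31.6 and 74.9 in the anti-rHER2 tumours. It was 33.5, 54.5, 51.3, 55.6 and 39.1 in the isotype ISAC tumours and 51.8, 38.3, 48.3, 47.9 and 32.03 in the isotype antibody tumours. The groups overlapped, and the log2 difference between the anti-rHER2 ISAC and the isotype antibody was -0.25 ± 0.21 (95% interval -0.70 to 0.20, adjusted p = 0.364). Il18 is released as an active cytokine after cleavage by caspase-1. Its signal was 48.5, 40.2, 51.6, 43.3 and 34.7 in the anti-rHER2 ISAC tumours and 41.9, 34.8, 56.96, 53.3 and 42.6 in the anti-rHER2 tumours. It was 46.9, 49.95, 43.6, 68.6 and 35.5 in the isotype ISAC tumours and 46.1, 32.6, 63.6, 47.9 and 51.5 in the isotype antibody tumours. The log2 difference between the anti-rHER2 ISAC and the isotype antibody was -0.13 ± 0.19 (95% interval -0.52 to 0.27), and the groups overlapped. A difference that misses the threshold does not show equal levels.

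Il23a, the p19 subunit of interleukin-23, averaged 55.7 ± 6.71 with the anti-rHER2 ISAC and 72.04 ± 11.6 with anti-rHER2, a log2 difference of -0.36 ± 0.15 that was not called (adjusted p = 0.106). Il16, a chemoattractant for CD4 cells, had a log2 difference of 0.35 ± 0.20 between the anti-rHER2 ISAC and the isotype antibody, and Il34, a ligand of the Csf1 receptor, of 0.052 ± 0.12 (95% interval -0.20 to 0.30). The low ligands were Il2, Il3, Il4, Il5, Il7, Il9, Il11, Il13, Il17a, Il17b, Il17f, Il19, Il21, Il22, Il24, Il25 and Il27. Their highest signal in any tumour was 15.95, for Il17b. Il21, the ligand of Il21r, ranged from 1.12 to 7.22 in the anti-rHER2 ISAC tumours and from 1 to 8.62 in the isotype antibody tumours. Il4 ranged from 2.06 to 3.66 in the anti-rHER2 ISAC tumours and from 1 to 2.66 in the isotype antibody tumours, at a few counts each.

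The anti-rHER2 antibody without T785 raised 1 of the 45 genes against the isotype antibody and lowered 0, against 8.83% and 0.26% of the panel. This was Il2, the T cell growth factor. It had signals of 2.79, 4.96, 4.13, 6.9 and 6.45 in the anti-rHER2 tumours and 1.88, 1, 1.18, 1.33 and 1.94 in the isotype antibody tumours (log2 fold change 1.26 ± 0.31, adjusted p = 0.021). The groups did not overlap, but the values are a handful of counts. The call was lost without isotype antibody tumour 2 or anti-rHER2 tumour 4 or 5 (adjusted p up to 0.0627), with equal medians and with edgeR on the recovered counts. Il2 had 2.74, 1, 6.19, 4.24 and 2.24 in the anti-rHER2 ISAC tumours and 4.78, 2.27, 1, 2.36 and 3.67 in the isotype ISAC tumours, and both groups overlapped the anti-rHER2 tumours. The median log2 fold change of anti-rHER2 over the isotype antibody was 0.20 over the 45 genes and 0.20 over all genes.

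The isotype ISAC, which carries T785 on an antibody of no stated target in these tumours, gave no call among the 45 genes against the isotype antibody. By limma 0 were higher and 0 lower, as were 0% of the panel, with 1 of the 45 at an unadjusted p below 0.05 and 0 called by edgeR. That 1 gene was Il3, with a log2 difference of 0.64 ± 0.28 and few counts. The median log2 difference was 0.072 over the 45 genes and 0.034 over all genes. Il21r averaged 31.3 ± 9.81 in the isotype ISAC tumours, against 33.3 ± 10.9 in the isotype antibody tumours.

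On the deposited scale most genes of the JAK-STAT list, which act downstream of these receptors, were higher with the anti-rHER2 ISAC. Of 13 measured genes 10 were called higher against the isotype antibody and 0 lower, where 39.9% of the panel was higher and 4.68% lower. Their median log2 fold change was 0.70 (all genes 0.36). On the other scales, a check added after seeing the data, equal medians gave 1 higher and 5 lower (median -0.021), quantile normalization 1 higher and 2 lower, and median ratios 3 higher and 1 lower. The panel's shares on those scales are not reported here. Socs3, a feedback inhibitor induced by cytokines, averaged 56.4 ± 11.7 with the anti-rHER2 ISAC and 20.9 ± 5.71 with the isotype antibody (log2 fold change 1.40). Stat4, which carries interleukin-12 signals, had a log2 fold change of 0.90, Bcl6, a repressor in T and B cells, of 0.85, and Stat2 of 0.85. Stat4 and Stat2 were called on none of the 3 other scales. Against anti-rHER2 4 of the 13 were higher (panel 19.6%), and against the isotype ISAC 8 (panel 36%), with 0 lower in either. With anti-rHER2 alone against the isotype antibody 0 were called (panel 8.83% higher and 0.26% lower).

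Of 5 measured partners without the Il prefix, 2 were higher against the isotype antibody and 0 lower (median 0.075), close to the 39.9% of the panel. Ebi3, which forms interleukin-27 with Il27, had a log2 fold change of 1.20, and Csf2rb, the common beta chain that pairs with Il3ra and Il5ra, of 0.62. Csf2rb has a near-identical mouse copy, Csf2rb2, so its value is uncertain. Of 10 measured genes of the MyD88 and inflammasome list 4 were higher and 0 lower, again close to the panel's 39.9%, and their median of 0.32 was below the panel's 0.36. These were Nlrp3, an inflammasome sensor (0.95), Irak3, an inhibitor of the pathway (0.86), the adaptor Myd88 (0.76) and the kinase Irak2 (0.74). Of 10 measured helper cell regulators and effectors 5 were higher and 0 lower, beside the panel's 39.9% higher (median 0.64, panel 0.36). Maf, a transcription factor of helper cells and macrophages, had a log2 fold change of 1.27, Tbx21, the type 1 regulator, of 1.11, Ifng, interferon gamma, of 1.09, and Rora, a nuclear receptor, of 0.56. These splits also moved with the scale. With equal medians, 1 partner was higher and 3 lower, 0 and 5 of the MyD88 and inflammasome list, and 1 and 3 of the helper regulators. With median-ratio scaling they were 1 and 2, 3 and 3, and 1 and 0, in the same order of lists. With quantile normalization they were 1 and 2, 0 and 4, and 1 and 2. The panel's shares on these scales are not reported here. Ebi3 was called higher on all 4 scales, at 0.49 with equal medians. Csf2rb, Irak3, Tbx21 and Rora were called on none of the 3 other scales. Csf2rb was -0.091 with equal medians, -0.070 with quantile normalization and 0.22 with median-ratio scaling.

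Markers of several cell types differed with the same treatment, and in bulk tumour RNA more cells of a type and more RNA per cell cannot be told apart. The summed signal of 4 measured neutrophil markers was 778 to 2265 in the anti-rHER2 ISAC tumours, 119.7 to 276 in the anti-rHER2 tumours, 53.9 to 79.2 in the isotype ISAC tumours and 45.98 to 75.8 in the isotype antibody tumours. All 4 were higher against the isotype antibody, where 39.9% of the panel was higher. The marker calls and sums are given on the deposited scale only. The 7 monocyte and macrophage markers summed to 2945 to 4236 with the anti-rHER2 ISAC, 2337 to 3349 with anti-rHER2, 1837 to 2091 with the isotype ISAC and 1394 to 1995 with the isotype antibody, and 5 of 7 were higher against the isotype antibody. Of 9 T cell markers 0 were called, with sums of 117 to 219 in the anti-rHER2 ISAC tumours and 87.2 to 166 in the isotype antibody tumours. Of 6 NK cell markers 1, Gzma, was higher, with sums of 604 to 1196 in the anti-rHER2 ISAC tumours and 355 to 663 in the isotype antibody tumours. Of 6 B cell markers 1, Cd79b, was higher, with sums of 43.95 to 52.6 in the anti-rHER2 ISAC tumours and 11.7 to 24.8 in the isotype antibody tumours. Of 6 measured mast cell and eosinophil markers 1, Ccr3, was higher, with sums of 153 to 187 in the anti-rHER2 ISAC tumours and 151 to 185 in the isotype antibody tumours. Kit made up most of these sums, at 105 to 137 and 121 to 151 in the same order, and Ccr3 had 13.5 to 49.4 and 1.92 to 17.3. Of 5 endothelial markers 4 were higher, with sums of 764 to 1015 in the anti-rHER2 ISAC tumours and 509.6 to 623 in the isotype antibody tumours. Of 4 measured dendritic cell markers 2, Ccr7 and Itgax, were higher, with sums of 125 to 187 in the anti-rHER2 ISAC tumours and 46.9 to 77.8 in the isotype antibody tumours, which did not overlap. Of 5 fibroblast markers 2 were higher, as were 2 of 5 measured markers of epithelium and tumour cells, shares close to that of the panel. The part of any of these cell types in the receptor differences was not tested.

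The size of these differences depends on the scale on which the tumours are set side by side. As deposited, the median gene of the panel was 0.36 higher on the log2 scale in the anti-rHER2 ISAC tumours than in the isotype antibody tumours. Scaling each tumour by median ratios set this median to -0.021, quantile normalization to -0.095 and equal medians to -0.30. Il21r and Il2rb were still called against the isotype antibody under all 3, and Il21r was called in all 3 comparisons of the anti-rHER2 ISAC. The split of calls moved: the share of lower calls grew on each other scale, as given above for the isotype antibody. The calls of Il1rl1, Il5ra and Il7r were lost on each of the 3 other scales. So were those of Il2rg against the isotype ISAC and of Il3ra against the isotype ISAC and anti-rHER2. Under equal medians and quantile normalization, Il2rg and Il3ra lost their calls against the isotype antibody, Il2rb against anti-rHER2, and Il4ra against both isotype groups. Equal medians also ended the calls of Il17ra, of Il2rb against the isotype ISAC and of Il4ra against anti-rHER2. Il15, Il18, Il23a, Il34, Il13ra1 and Il15ra were called lower against the isotype antibody under all 3. Their log2 fold changes with median-ratio scaling were -0.65 for Il15, -0.52 for Il18, -0.61 for Il23a, -0.35 for Il34, -0.58 for Il13ra1 and -0.59 for Il15ra. Which scale holds the true level was not tested.

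**Figure D4:**
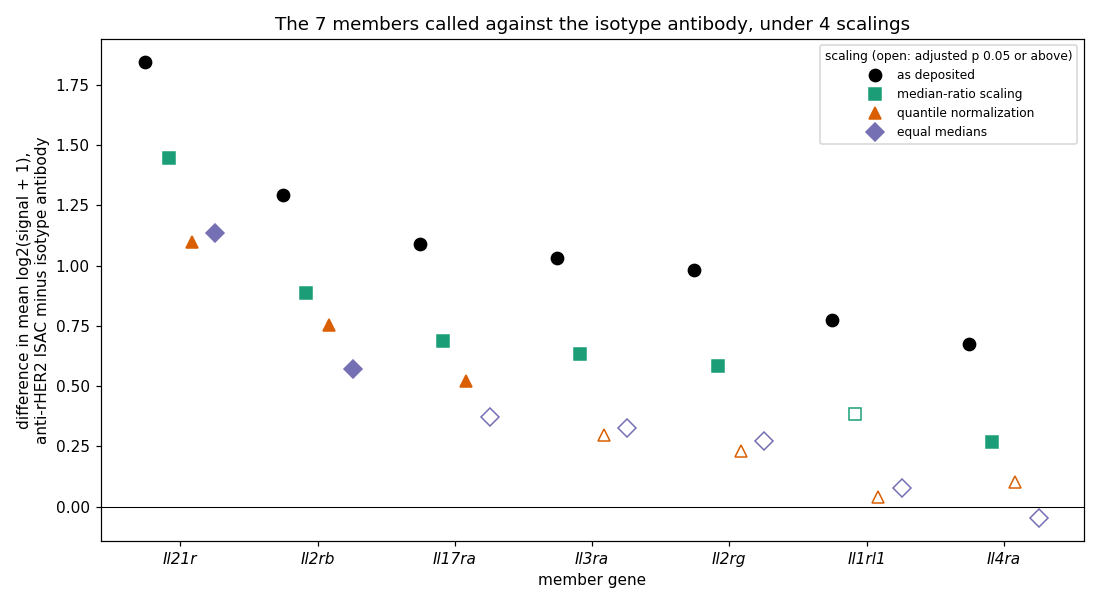
Log2 fold change, anti-rHER2 ISAC over isotype antibody, on the deposited scale and after equal medians, quantile normalization or median-ratio scaling, for the 7 genes called as deposited, with open symbols where the adjusted p was 0.05 or above. Il21r lies between 1.10 and 1.85 on the 4 scales, and Il4ra at -0.047 with equal medians.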

How the data were processed

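The deposited values are a normalized signal per gene and tumour for 770 genes in 20 tumours. RNA was hybridised to nCounter probes after extraction with the RNeasy kit, per the labels' protocols. What normalization the authors applied to the deposited signal was not given in the sources used here. Nor were background treatment, control probes or cartridge, and no test of a batch could be made. Counts recovered from the values were whole within 0.02 of a count, beside the rounding of the deposited decimals, for 100% of values above 1 and up to 1000. A value of 1, the floor, may stand for 0 counts.

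The groups came from the treatment label. No pair of tumours had identical values. The test was limma 3.58.1 (R 4.3.3) on log2(signal + 1), with 1 fit over all tumours, a mean per group, eBayes without trend and 2-sided p-values adjusted by Benjamini-Hochberg over 770 genes. The intervals are 95% intervals of the fit. The procedure was tested on simulated data in which as many genes rose as fell. That simulation held no shift of the panel's median, so it cannot bear on the choice of scale. Alternatives were other scalings, a pseudocount of 10, leaving out the 192 genes of lowest mean signal, fits of the compared groups alone, the replicate number as a block, edgeR 4.0.16 on the recovered counts, and leaving out each tumour. The members, lists and tests were chosen with earlier results of these data known. Values in each tumour are given for members called in at least 1 pairwise comparison and for Il15 and Il18, and list genes are the called ones with the largest change, up to 5 a list, some of which are not reported here. Promoter sequences are from RefSeq (GRCm38.p6): all 45 symbols matched, and 33 have a promoter entry.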

Additional observations from a re-analysis of the deposited data

Results flagged for a closer look

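Single tumours that stood apart from the rest of their group were looked for in 12 genes and 4 groups, 48 tests of which chance would give about 1 in 20. There were 2. Il21r was 14.62 in isotype antibody tumour 4, below the 34.49 to 41.24 of the other 4. Without that tumour Il21r was still called in all comparisons of the anti-rHER2 ISAC and in the interaction. Il5ra was 5.91 in isotype ISAC tumour 4, where the other 4 had 1 to 1.22, at a few counts.

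The difference that T785 made depended on the antibody for 2 genes, by the interaction term of the limma fit. It was 1.45 for Il21r and 0.67 for Il4ra, and both calls were lost with equal medians and with quantile normalization.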

How the results depend on the processing

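The calls rest most on the scale of the tumours. Il21r in the 3 comparisons of the anti-rHER2 ISAC, and Il2rb against the isotype antibody, were called under all 8 alternatives. Il4ra turned negative with equal medians, at -0.047 against the isotype antibody and -0.072 against the isotype ISAC, and Il1rl1 against the isotype ISAC did so with equal medians (-0.025) and quantile normalization (-0.0169), none of them called. Genes called higher and lower by the anti-rHER2 ISAC numbered 2 and 9 with equal medians and 3 and 8 with quantile normalization against the isotype antibody, and 6 were lower with median-ratio scaling. Against anti-rHER2 they numbered 1 and 7 with equal medians and 3 and 3 with quantile normalization, and 1 was lower with median-ratio scaling. Against the isotype ISAC they numbered 1 and 11 with equal medians, 4 and 7 with median-ratio scaling and 3 and 9 with quantile normalization. For anti-rHER2 against the isotype antibody 0 were higher with equal medians, without the 192 genes of lowest signal, among them Il2, and with edgeR. In the interaction 0 were higher with equal medians or quantile normalization, and 2 were lower with equal medians. Beyond these shifts in the panel's median, the cause was not tested. The panel's shares of higher and lower genes on the other scales are not reported here, so these counts are not set against them.

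Leaving out 1 tumour in turn gave 6 to 10 genes higher than with the isotype antibody, 4 to 6 than with anti-rHER2, 6 to 9 than with the isotype ISAC and 2 to 3 in the interaction. It gave 0 to 1 lower against the isotype ISAC (1 without anti-rHER2 ISAC tumour 3) and 0 to 1 higher for anti-rHER2 against the isotype antibody. With the replicate number as a block, 8 genes were higher in the comparison with the isotype antibody, 4 in that with anti-rHER2 and 8 in that with the isotype ISAC. The ligand Il11 was then called higher against the isotype antibody (0.73, adjusted p = 0.0163), and the calls of Il3ra against anti-rHER2 and Il7r against the isotype ISAC were lost. Whether the numbers pair the tumours was not settled. The correlation of same-numbered tumours across groups had a median of 0.0041, with 10 of 30 over 0.1. For tumours with different numbers the median was -0.011, with 23 of 120 over 0.1. Medians near zero cannot show that no pairing exists. On the recovered counts edgeR called 313 genes of the panel higher and 37 lower for the anti-rHER2 ISAC over the isotype antibody, among them 7 and 0 of the 45. Few counts limit the 26 genes with a mean signal under 10.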
